A study of Mus musculus with 21 samples.

Results

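The regions described here are the stretches of the mouse genome where chromatin immunoprecipitation followed by sequencing (ChIP-seq) placed an Hnf4a peak in induced hepatocyte-like (iHep) cells made with Foxa1 and in those made with Foxa2, but not in those made with Foxa3. The 3 iHep Hnf4a peak lists were pooled, peaks that overlapped by at least 1 bp were merged, and a merged region was kept when it held a peak of the Foxa1 line and of the Foxa2 line and none of the Foxa3 line. This left 582 of 4813 merged regions, or 12.1%. They are called shared Foxa1/Foxa2-line regions below. They were chosen by the presence or absence of a called Hnf4a peak in these lists, so their Hnf4a scores, ranks and widths are given as a description only, while the Foxa lists and the 48-hour Hnf4a lists played no part in the choice.

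All cells came from C57BL/6 mouse embryonic fibroblasts of embryos at 13.5 days post coitum, and every group carried retroviral Hnf4a. The Foxa1, Foxa2 and Foxa3 lines received Hnf4a together with Foxa1, Foxa2 or Foxa3, and each line was assayed 48 hours after infection and again as established iHep cells. In each line and at each stage Hnf4a and the line's own Foxa protein were mapped, with 1 library per group, which gave 12 peak lists from a series of 21 samples. Each Foxa protein was therefore mapped only in its own line, so that the protein, its antibody and the line cannot be told apart. The titles carry codes that the sources do not explain. In iHep cells the code is the same for both antibodies of the Foxa1 line (R225) and of the Foxa3 line (R170, with replicate number 3), but differs for the Foxa2 line (R215 for Foxa2, R242 for Hnf4a). At 48 hours the code is R222 for the Foxa1 line and R209 for both other lines. No expression data were at hand to check the hepatocyte-like identity of the cells, and the files hold no read counts, so the depth behind each list is unknown.

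Hnf4a is a nuclear receptor that binds DNA as a homodimer and is a master regulator of hepatocyte gene expression. Foxa1, Foxa2 and Foxa3 are forkhead transcription factors of the liver and other endoderm-derived tissues. They are known as pioneer factors because they can bind their sites in compacted chromatin and make neighbouring DNA accessible to other factors. Many enhancers of the adult liver are bound by Hnf4a and Foxa proteins together.

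With 1 library per group there was no replicate spread and no test between conditions. Shares of regions carry 95% Wilson intervals and differences between shares carry 95% Newcombe intervals, in percentage points. Both cover counting error only, are not adjusted for the number of lists compared, and treat neighbouring regions as independent. The score of a peak is the authors' own. The sources do not state its scale, so it was used only to rank peaks within a list, with percentile 100 for the highest.

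The shared Foxa1/Foxa2-line regions held 585 of the 1580 Hnf4a peaks of the Foxa1 line (37.0%) and 583 of the 2485 Hnf4a peaks of the Foxa2 line (23.5%). In 578 regions there was 1 peak of each line, and 4 regions held 3 peaks. The 2 peaks of a region lay close together. Their centres were a median of 50.25 bp apart, 462 regions (79.4%) had centres within 100 bp, and in 566 regions the overlap covered at least 50% of the shorter peak. The weakest case rested on an overlap of 2 bp.

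The regions had a higher score percentile in the list of the Foxa2 line than in that of the Foxa1 line. Their median score percentile was 55.3 in the Foxa1-line list (interquartile range 29.2 to 77.1) and 69.8 in the Foxa2-line list (45.4 to 85.9). Hnf4a regions of all 3 lines stood at medians of 72.8 and 78.1 in the same lists, regions of the Foxa1 line alone at 32.6, and regions of the Foxa2 line alone at 34.6. The shared regions thus lay between the regions held by all lines and those held by a single line. The Foxa1-line list is the shorter, with 1580 peaks against 2485. A percentile depends on the length of its list, so the order of the 2 medians does not show that the regions ranked higher in the Foxa2 line.

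A high rank in one line did not imply a high rank in the other. The top quartile of the Foxa1-line list held 158 of the regions (27.1%) and the top quartile of the Foxa2-line list held 254 (43.6%), and 92 were in both. The bottom quartiles held 132 regions (22.7%) in the Foxa1-line list and 58 (9.97%) in the Foxa2-line list. There were 39 regions in the top quartile of the Foxa2-line list and the bottom quartile of the Foxa1-line list, against 3 with the opposite order. These 2 counts start from unequal quartile sizes, which by themselves favour the first order. Across the 582 regions the 2 percentiles had a Spearman rho of 0.28. These are regions of 2 libraries precipitated for the same protein, and the value is a description.

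**Figure D1:**
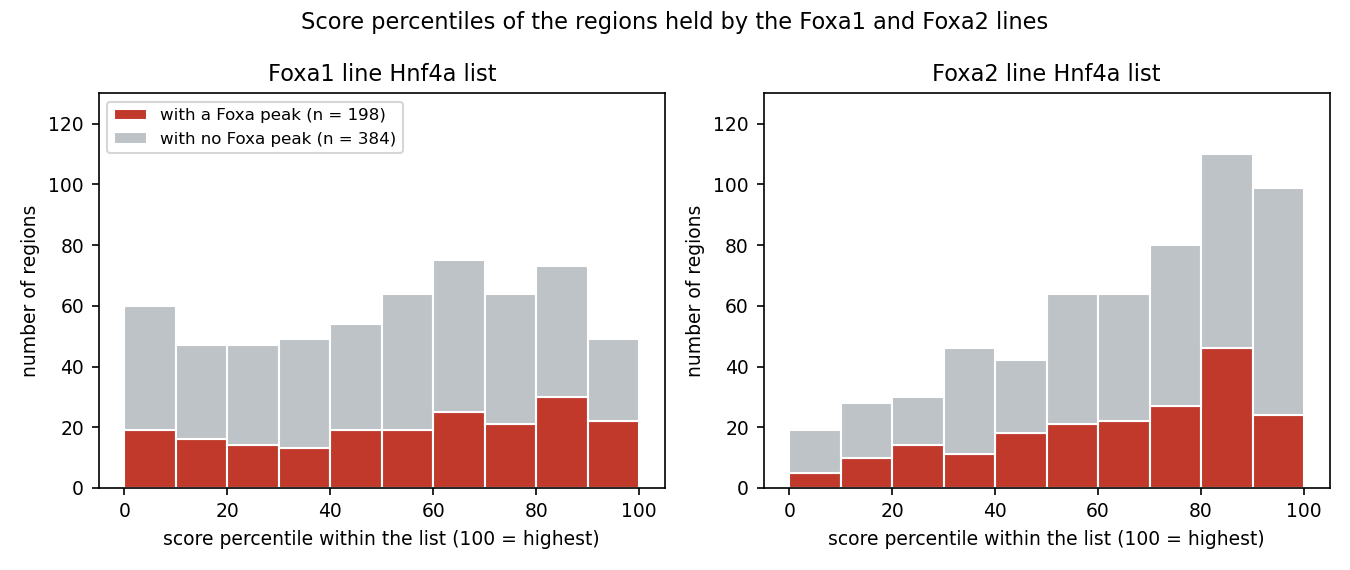
Number of shared Foxa1/Foxa2-line regions by the score percentile of their Hnf4a peak (horizontal axis, 100 = highest) in the Foxa1-line list (left) and the Foxa2-line list (right), with regions that held any Foxa peak in red (198) and those with none in grey (384). The regions spread across the whole Foxa1-line list, with a median of 55.3, and gather in the upper part of the Foxa2-line list, with a median of 69.8.

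The merged regions were 272 to 29305 bp wide with a median of 449 bp and an interquartile range of 385 to 534 bp, and 5 were wider than 1000 bp. Regions of all 3 lines had a median of 616 bp, regions of the Foxa1 line alone 255 bp, regions of the Foxa2 line alone 326 bp and regions of the Foxa3 line alone 196 bp. Merging more peaks makes a region wider, and each list also had its own shortest peak, which was 200 bp for the Foxa1 line, 272 bp for the Foxa2 line and 156 bp for the Foxa3 line. At the shared regions the peaks themselves had a median of 315 bp for the Foxa1 line and 406 bp for the Foxa2 line, and the peak of the Foxa2 line was the wider one in 454 regions. Wider regions have more chance to meet a peak of another list, so widths stand beside the shares that follow.

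Most of the regions had no Foxa3-line Hnf4a peak close by, but this was no more so than at single-line regions. The nearest Hnf4a peak of the Foxa3 line was a median of 228203 bp away, and 52 regions (8.93%, 6.88 to 11.5) had one within 1 kb. The share within 1 kb was lower in regions of the Foxa1 line alone (6.27%, 4.48 to 8.72) and of the Foxa2 line alone (5.49%, 4.39 to 6.85). The values nearest the boundary show how fine it can be. On the inner side, the region at chr6:72473241-72473670 (mm9, here and below) abutted a Foxa3-line peak with no base between them, chr6:147903453-147903879 was 2 bp from one and chr12:84919957-84920583 was 6 bp from one. On the outer side, chr8:87267267-87267985 was counted among the regions of all 3 lines through a 1 bp overlap, chr7:86401365-86401982 through 5 bp and chr6:37347973-37348446 through 13 bp.

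The Foxa proteins of the lines that hold these regions were found at them more often than at the average Hnf4a region. An iHep Foxa1 peak lay at 92 of the 582 regions, 15.8% (13.1 to 19.0), where 8.25% of all 4813 regions had one. An iHep Foxa2 peak lay at 155 regions, 26.6% (23.2 to 30.4), where 14.8% of all regions had one. Either of the 2 was present at 165 regions, 28.4% (24.8 to 32.1; 15.5% of all regions), and both at 82, 14.1% (7.48% of all regions). The 4813 regions include 1728 (35.9%) of the Foxa3 line alone, which lower these averages. Of those 1728, 1.62% were at iHep Foxa1 and 5.09% at iHep Foxa2, so part of the excess reflects the make-up of the whole set. The iHep Foxa2 list is the longer, with 10330 peaks against 3435 for Foxa1, and its top 3435 peaks alone gave 13.2%, so the order of the 2 proteins was not kept at equal list length.

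For Foxa1 and Foxa2 in iHep cells, the shared Foxa1/Foxa2-line regions could not be set apart from regions held by all 3 lines. The share at iHep Foxa1 was 15.8% in the shared regions and 19.1% in regions of all 3 lines, a difference of -3.31 points (-8.34 to 1.5). The share at iHep Foxa2 was 26.6% in the shared regions and 27.4% in regions of all 3 lines, a difference of -0.76 points (-6.53 to 4.87). These intervals still allow a gap of several points, and the regions of all 3 lines were the wider ones.

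Against regions held by a single line the differences depended on the paralog. At iHep Foxa2 the shared regions exceeded regions of the Foxa2 line alone (16.3%) by 10.3 points (6.30 to 14.5) and regions of the Foxa1 line alone (18.6%) by 8.0 points (3.03 to 12.9). At iHep Foxa1 they exceeded regions of the Foxa2 line alone (8.27%) by 7.54 points (4.36 to 11.003). Set against regions of the Foxa1 line alone (14.5%), however, the gain at iHep Foxa1 was 1.30 points with an interval from -3.01 to 5.53. At these counts the shares at iHep Foxa1 could not be told apart between Foxa1-line regions that the Foxa2 line also held and those it did not. None of these comparisons is matched for Hnf4a rank, which was lower in single-line regions.

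iHep Foxa3 peaks were scarce at the shared regions. They lay at 22 of 582, 3.78% (2.51 to 5.66), where 22.4% of all regions had one, 17.6% of the regions of all 3 lines and 46.8% of the regions of the Foxa3 line alone. The shared regions differed by -13.8 points from the regions of all 3 lines (-18.1 to -9.85) and by -4.26 points from regions of the Foxa1 line alone (-7.23 to -1.47), of which 8.04% had one. The difference from regions of the Foxa2 line alone (5.26%) was -1.48 points (-3.33 to 0.68). Foxa3 was mapped in the same line whose Hnf4a list defined the absence of a peak, and its list was the longest of all, with 12661 peaks.

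**Figure D2:**
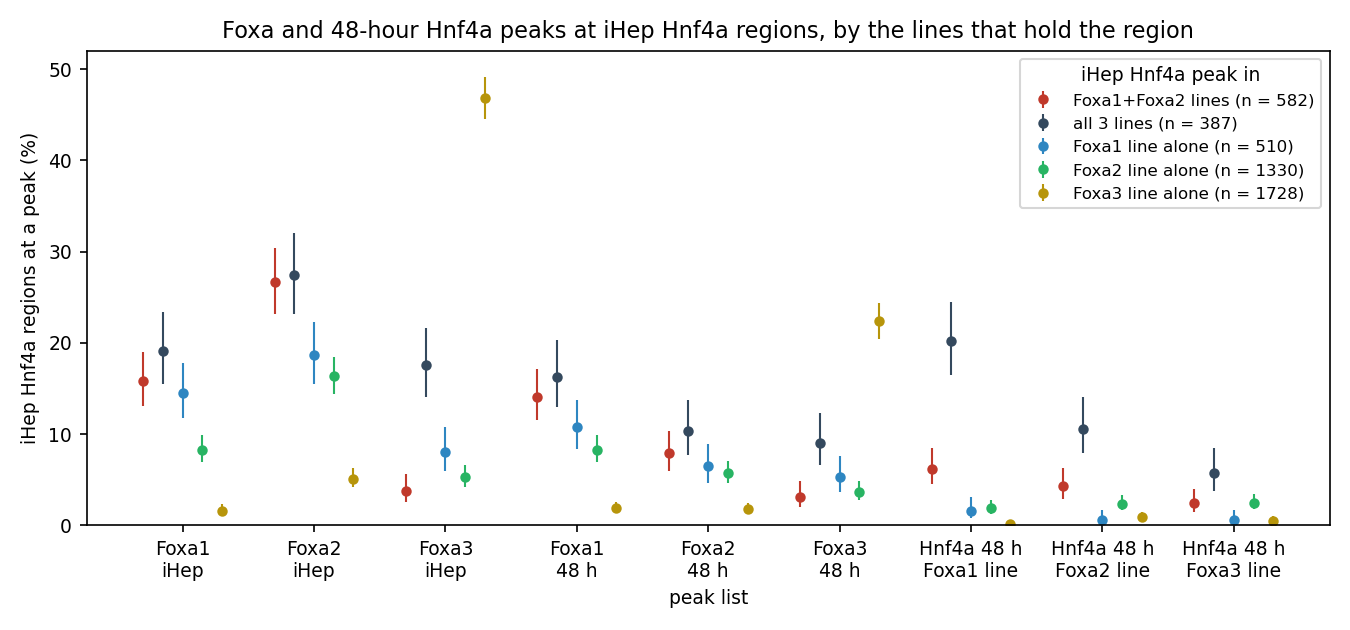
Percentage of iHep Hnf4a regions that overlap a peak of each list (vertical axis), for regions of the Foxa1 and Foxa2 lines (red), all 3 lines (dark blue), the Foxa1 line alone (light blue), the Foxa2 line alone (green) and the Foxa3 line alone (yellow); bars are 95% Wilson intervals, for counting error only. The red points sit near the dark blue ones at Foxa1 and Foxa2 peaks (26.6% and 27.4% at iHep Foxa2) and far below them at iHep Foxa3 (3.78% and 17.6%) and at 48-hour Hnf4a peaks of the Foxa1 line (6.19% and 20.2%).

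Foxa3 was also the least frequent of the 3 proteins at the regions 48 hours after infection, and Foxa1 the most frequent. A 48-hour Foxa1 peak lay at 82 of the regions, 14.1% (11.5 to 17.2; 7.52% of all regions), a 48-hour Foxa2 peak at 46, 7.90% (5.98 to 10.4; 5.15% of all regions), and a 48-hour Foxa3 peak at 18, 3.09% (1.97 to 4.84; 11.6% of all regions). The 48-hour Foxa1 and Foxa2 lists had 6781 and 6827 peaks, so Foxa1 was the more frequent of these 2 at almost equal list length. The 2 lists together covered 97 regions, 16.7% (9.33% of all regions). Regions of the Foxa3 line alone lower the averages for Foxa1 and Foxa2 too, with 1.85% at 48-hour Foxa1 and 1.74% at 48-hour Foxa2. They raise the average for Foxa3, with 22.3% at 48-hour Foxa3, so part of that contrast reflects the make-up of the whole set. Against regions of all 3 lines (16.3% and 10.3%) the differences were -2.19 points (-6.96 to 2.34) for Foxa1 and -2.43 points (-6.37 to 1.20) for Foxa2. For 48-hour Foxa3 the shared regions differed from regions of all 3 lines (9.04%) by -5.95 points (-9.41 to -2.93). Against single-line regions it was not set apart, with -2.20 points (-4.76 to 0.19) from the Foxa1 line alone (5.29%) and -0.59 points (-2.20 to 1.36) from the Foxa2 line alone (3.68%).

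Most of the regions, 384 of 582 or 66.0% (62.0 to 69.7; 60.1% of all regions), met no Foxa peak of any line or stage. Any Foxa peak was present at 198, 34.0% (30.3 to 38.0; 39.9% of all regions), against 48.6% of the regions of all 3 lines. The share was 33.1% in regions of the Foxa1 line alone, 24.1% in those of the Foxa2 line alone and 53.1% in those of the Foxa3 line alone. Of the regions without a Foxa peak, 8 (2.08%) had an iHep Foxa1 or Foxa2 peak within 1 kb and 75 (19.5%) within 10 kb. Few of them thus had a Foxa1 or Foxa2 peak just beside the region. Regions with and without a Foxa peak had like Hnf4a ranks in the Foxa2-line list, with median percentiles of 69.5 and 70.3, and stood at 59.7 and 52.9 in the Foxa1-line list.

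A few combinations took in most of the 198 regions with a Foxa peak. The most frequent was iHep Foxa2 by itself, at 45 regions. Next came Foxa1 and Foxa2 in iHep cells with Foxa1 at 48 hours (36 regions), both proteins in iHep cells only (26 regions) and both proteins at both stages (16 regions). Together with 3 further regions that also had a Foxa3 peak, all 4 Foxa1 and Foxa2 lists met at 19 regions, 3.26% of the total (2.12% of all regions). Foxa3 at both stages without Foxa1 or Foxa2 was found at 10 regions, and iHep Foxa3 alone at 7.

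**Figure D3:**
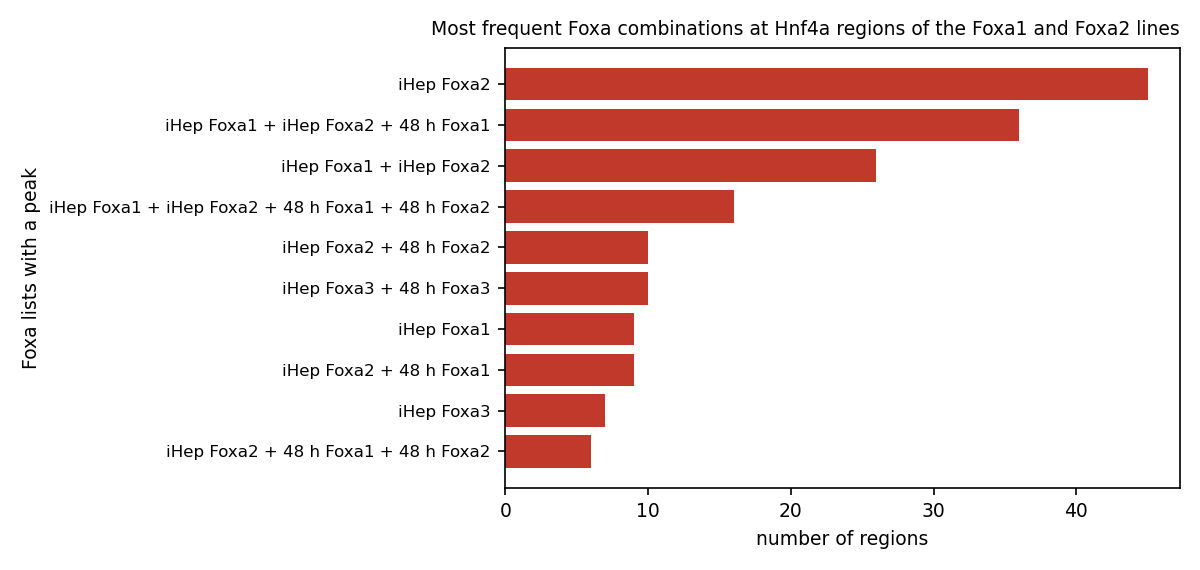
Number of shared Foxa1/Foxa2-line regions (horizontal axis) with each of the 10 most frequent combinations of Foxa peaks (vertical axis). The 384 regions with no Foxa peak are left out, and iHep Foxa2 by itself leads with 45 regions.

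Where Foxa1 and Foxa2 coincided, the shared regions stood close to the whole set of iHep Hnf4a regions. Of the 92 regions with an iHep Foxa1 peak, 82 (89.1%) also had an iHep Foxa2 peak, against 360 of 397 (90.7%) over all regions. Of the 155 regions with an iHep Foxa2 peak, 82 (52.9%) had an iHep Foxa1 peak, against 360 of 710 (50.7%) over all regions. Of the whole iHep Foxa1 list outside dense stretches, with or without Hnf4a, 85.3% of peaks overlapped an iHep Foxa2 peak. The 45 regions whose only Foxa peak was iHep Foxa2 stood at a median Hnf4a percentile of 46.9 in the Foxa1-line list and 78.8 in the Foxa2-line list. The 36 regions with Foxa1 and Foxa2 in iHep cells and Foxa1 at 48 hours had medians of 78.1 and 73.9 in the same lists. These percentiles are descriptions of small groups.

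The iHep Foxa peaks at the regions were above the middle of their own lists, as they were at iHep Hnf4a regions in general. The median score percentile was 63.8 for iHep Foxa1, 66.2 for iHep Foxa2 and 64.8 for the few iHep Foxa3 peaks, against 61.7, 63.1 and 66.9 at all regions. At 48 hours it was 54.2 for Foxa1, 54.9 for Foxa2 and 60.6 for Foxa3, against 63.3, 56.7 and 62.8 at all regions. The 48-hour Foxa1 peaks showed the widest gap of these 6 lists, with lower values at the shared regions. Some single peaks were extreme. At chr10:86307986-86308589 the Foxa1 peak had the highest score of its list both at 48 hours and in iHep cells, and the Foxa2 peak was the highest of its list at 48 hours and ranked 2 in iHep cells. The Hnf4a peaks of that region ranked 51 for the Foxa1 line and 156 for the Foxa2 line, it had a 48-hour Foxa3 peak of rank 373, and no Hnf4a peak was listed there at 48 hours.

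Where a region met a Foxa1 or Foxa2 peak, most such peaks had their centre within 100 bp of the Hnf4a centre of their own line. Only regions that overlap a Foxa peak were measured, and the overlap itself limits the distance. Median widths of the iHep Foxa peaks at the regions were 467 bp for Foxa1, 537 bp for Foxa2 and 372.5 bp for Foxa3. The distance between centres was a median of 74.75 bp for iHep Foxa1, with 58 of 92 regions (63.0%) within 100 bp, and 61 bp for iHep Foxa2, with 110 of 155 (71.0%) within 100 bp. At 48 hours the medians were 78 bp for Foxa1 and 77.25 bp for Foxa2. Regions of all 3 lines gave 84.5 bp for iHep Foxa1 and 54.75 bp for iHep Foxa2. Where a region met an iHep Foxa3 peak, the centre of that peak was a median of 195.5 bp from the Hnf4a centre of the Foxa2 line, and 7 of 22 (31.8%) were within 100 bp. For Foxa3 the Hnf4a centre came from another line, because these regions have no Hnf4a peak in the Foxa3 line. The same measure was a median of 150.75 bp at regions of all 3 lines.

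**Figure D4:**
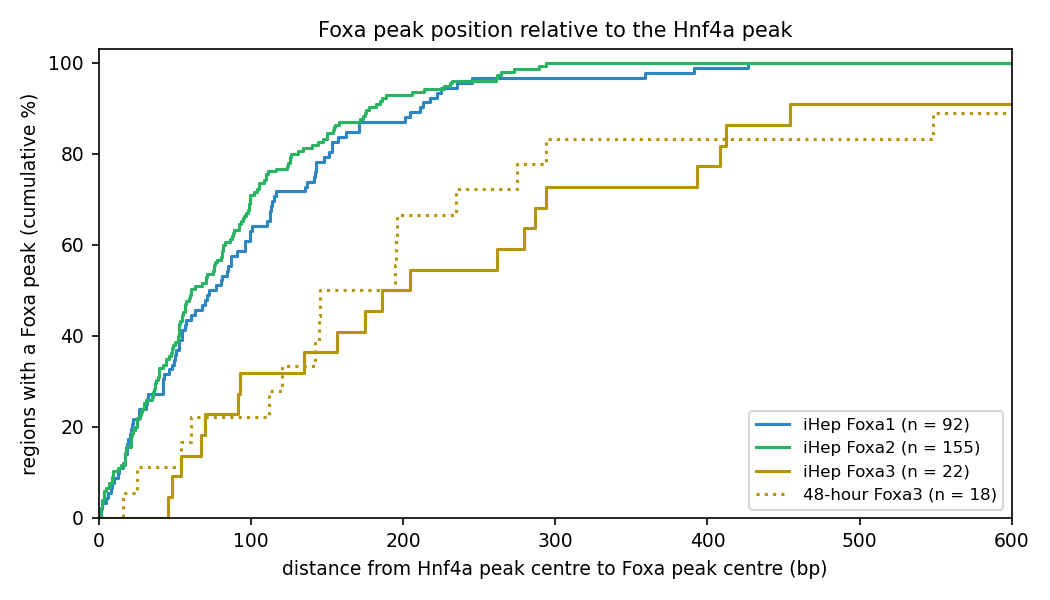
Cumulative percentage of the regions with a Foxa peak (vertical axis) by the distance in bp between the Foxa and Hnf4a peak centres (horizontal axis), for iHep Foxa1 (92 regions), iHep Foxa2 (155), iHep Foxa3 (22) and 48-hour Foxa3 (18). Foxa1 was measured to the Hnf4a peak of the Foxa1 line and Foxa2 and Foxa3 to that of the Foxa2 line; the Foxa3 curves lie to the right, with medians of 195.5 bp in iHep cells and 170 bp at 48 hours.

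Foxa occupancy varied with the rank of the Hnf4a peak, and how it did so depended on the list and on the class of regions; these patterns were not tested against each other. When the regions were ordered by their Hnf4a score in the Foxa1-line list, the share at an iHep Foxa1 peak was 9.09%, 9.68%, 19.0% and 22.8% from the lowest to the highest quartile. The share at an iHep Foxa2 peak was 18.2%, 24.2%, 25% and 37.3% in the same quartiles. The lowest and highest quartiles had intervals that did not overlap, at 5.28 to 15.2 and 16.9 to 29.9 for Foxa1 and at 12.5 to 25.6 and 30.2 to 45.1 for Foxa2. Over the same quartiles the share at iHep Foxa1 was 30.4%, 11.8%, 18.4% and 19.4% in regions of all 3 lines and 11.5%, 13.7%, 16.2% and 28.2% in regions of the Foxa1 line alone, and the regions of the Foxa1 line alone thus had the same order of quartiles as the shared regions. Ordered by score in the Foxa2-line list, the share at iHep Foxa2 was 27.6%, 18.5%, 29.0% and 28.3% from lowest to highest with no such order. Regions of the Foxa2 line alone went through 8.08%, 19.0%, 23.5% and 22.7% over these quartiles. In the lowest quartile the intervals were apart, at 17.8 to 40.2 for the 58 shared regions and 5.99 to 10.8 for the 495 regions of the Foxa2 line alone.

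**Figure D5:**
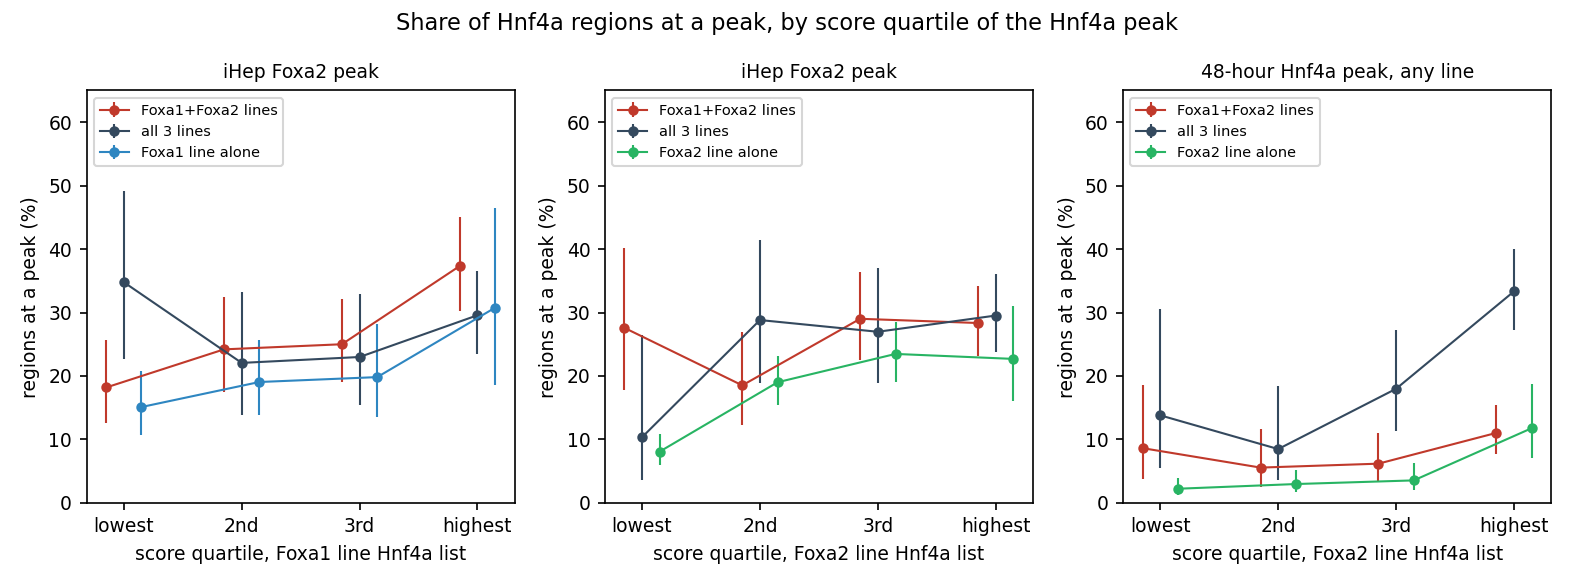
Percentage of regions at an iHep Foxa2 peak (left and middle) and at a 48-hour Hnf4a peak of any line (right), by quartile of the Hnf4a score in the Foxa1-line list (left) or the Foxa2-line list (middle and right), with 95% Wilson intervals, for shared Foxa1/Foxa2-line regions (red), regions of all 3 lines (dark blue) and regions of a single line (light blue and green). In the highest quartile on the right, 11.02% of the shared regions and 33.3% of the regions of all 3 lines were at a 48-hour Hnf4a peak.

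Few of the regions had an Hnf4a peak 48 hours after infection. One was listed in any of the 3 lines at 49 regions, 8.42% (6.43 to 10.96), where 5.15% of all regions had one, and the other 533 (91.6%) had none. The 48-hour Hnf4a lists are short, with 418 peaks for the Foxa1 line, 453 for the Foxa2 line and 370 for the Foxa3 line. Outside a few stretches where all 3 lists are densely packed with peaks, they held 290, 328 and 251. A missing peak at 48 hours therefore says little about low occupancy. Among regions defined from the upper 50% of each iHep Hnf4a list by score the share was 15.1%. By line, the count was 36 for Foxa1, 6.19% (4.50 to 8.44; 3.41% of all regions), 25 for Foxa2, 4.30% (2.93 to 6.26; 2.74% of all regions), and 14 for Foxa3, 2.41% (1.44 to 3.997; 1.87% of all regions). The lines that define the regions, those of Foxa1 and Foxa2, gave an early peak at 46 (7.90%; 4.74% of all regions).

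By 48-hour history the shared regions lay between regions held by all 3 lines and those held by a single line. Regions of all 3 lines had a 48-hour Hnf4a peak in 24.5%, and the shared regions differed from them by -16.1 points (-21.1 to -11.4). Regions of the Foxa1 line alone had 2.35% and those of the Foxa2 line alone 3.61%, and the shared regions exceeded them by 6.07 points (3.44 to 8.79) and 4.81 points (2.51 to 7.49). The other pairs of lines gave 10.3% (6.71 to 15.6) of the 184 regions of the Foxa2 and Foxa3 lines and 5.43% (2.34 to 12.1) of the 92 regions of the Foxa1 and Foxa3 lines, and both intervals take in the 8.42% of the shared regions. Among peaks of high rank the gap to the regions of all 3 lines was present and that to single-line regions was not detectable. Within the top quartile of the Foxa1-line list the share was 12.03% (7.84 to 18.0) of the shared regions, 31.7% (25.5 to 38.7) of the regions of all 3 lines and 7.69% (2.65 to 20.3) of the regions of the Foxa1 line alone. Within the top quartile of the Foxa2-line list it was 11.02% (7.74 to 15.5) of the shared regions, 33.3% (27.3 to 40.0) of the regions of all 3 lines and 11.8% (7.14 to 18.8) of the regions of the Foxa2 line alone.

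Among the 49 regions with early Hnf4a, 21 had it with Foxa1 only, 7 with Foxa2 only, 7 with both of these, 8 in all 3 lines, 3 with Foxa3 only and 3 with Foxa2 and Foxa3. The Foxa3 line thus listed an Hnf4a peak at 48 hours at 14 regions where its iHep list had none. These include chr9:3009117-3038421, which held 81 such peaks in a densely packed stretch. Outside such stretches the peaks ranked low in their list, with a median score percentile of 19.9 (27.0 at all regions) and a best rank of 245 of 370. The 49 regions stood higher in the iHep lists than the other 533, with median percentiles of 67.3 against 55.0 for the Foxa1 line and 79.2 against 69.5 for the Foxa2 line. A Foxa peak was present at 22 of the 49 (44.9%), against 117 of 248 (47.2%) over all regions with early Hnf4a. The region of best rank with early Hnf4a in both of the defining lines was chrX:100751784-100752365, which ranked 102 and 59 in the iHep Hnf4a lists of the Foxa1 and Foxa2 lines, 184 and 439 in their 48-hour Hnf4a lists, and had Foxa2 peaks at both stages.

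Early Foxa1 and Foxa2 peaks at the regions were mostly still listed in iHep cells. For the peak counts in this paragraph, stretches where all 3 of the 48-hour Hnf4a lists are densely packed with peaks were left out. Of 80 Foxa1 peaks of the 48-hour list that lay at the regions, 56 overlapped an iHep Foxa1 peak, 70.0% (59.2 to 78.9), against 28.6% (27.5 to 29.8) of the 6418 Foxa1 peaks that met no iHep Hnf4a region. Of 45 Foxa2 peaks, 38 overlapped an iHep Foxa2 peak, 84.4% (71.2 to 92.3), against 30.0% (28.9 to 31.1) of the 6580 peaks that met no iHep Hnf4a region. The gap was also present within the upper 50% of each 48-hour list by score, at 84.1% against 41.8% for Foxa1 and 92.3% against 38.1% for Foxa2.

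High kept shares were also found at the other Hnf4a regions. The kept share of 48-hour Foxa1 peaks was 73.3% (61.0 to 82.9) at regions of all 3 lines, 83.6% (71.7 to 91.1) at regions of the Foxa1 line alone and 67.9% (58.5 to 76.0) at regions of the Foxa2 line alone. For Foxa2 it was 74.4% (58.9 to 85.4), 60.6% (43.7 to 75.3) and 76.4% (65.4 to 84.7) in the same classes. All of these intervals overlap those of the shared regions, which does not show that the shares are alike. The largest gap was for Foxa2, with 84.4% at the shared regions and 60.6% at regions of the Foxa1 line alone. Differences between the kept shares were not tested. For Foxa3, 13 of 18 peaks at the regions (72.2%, 49.1 to 87.5) were kept and so were 72.8% of those that met no Hnf4a region.

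In the opposite direction the shares were close with and without Hnf4a. Of the 92 iHep Foxa1 peaks at the regions, 60.9% (50.7 to 70.2) overlapped a 48-hour Foxa1 peak, against 60.6% of the iHep Foxa1 peaks that met no Hnf4a region. Of the 155 iHep Foxa2 peaks, 24.5% (18.4 to 31.9) overlapped a 48-hour Foxa2 peak, against 20.5%. At the regions themselves, a 48-hour Foxa1 peak was present at 72 of the 155 regions with iHep Foxa2 (46.5%) and a 48-hour Foxa2 peak at 38 (24.5%), against 43.5% and 24.8% over all regions with iHep Foxa2. The 48-hour Foxa1 peaks in turn met iHep Foxa2 at 72 of 82 regions (87.8%) and iHep Foxa1 at 56 (68.3%), against 85.4% and 68.5% over all regions with a 48-hour Foxa1 peak. The shared regions were thus close to the whole set in each of these shares. The iHep Foxa2 list is the longer of the 2.

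The 10 regions of lowest summed rank show the mixture in small. The first, chr2:44775931-44776490, had Hnf4a ranks of 7 for the Foxa1 line (score 42.6) and 26 for the Foxa2 line (score 55.0), with Foxa1 and Foxa2 peaks in iHep cells and none at 48 hours. The second, chr18:60789876-60790541, ranked 21 and 39 and carried peaks of all 4 Foxa1 and Foxa2 lists and also of iHep Foxa3, the last at rank 7949 of 12661. The next in order, chr3:42480586-42481110, ranked 37 and 24, with iHep Foxa1 and Foxa2 peaks of rank 155 and 128 and a 48-hour Foxa1 peak of rank 454. None of these 3 had an Hnf4a peak at 48 hours.

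Another 3 of the 10 had iHep Foxa2 peaks. At chr9:90198244-90198710 (Hnf4a ranks 19 and 139) and chr3:98310915-98311571 (ranks 111 and 75) both proteins were present in iHep cells and Foxa1 at 48 hours, and the third was the X-chromosome region described above. The remaining 4 had no Foxa peak at all. These were chr15:75698538-75699116 (Hnf4a ranks 86 and 36), chr13:66869252-66870115 (75 and 73), chr14:60499522-60500086 (67 and 96) and chr12:85049351-85049957 (46 and 144). Strong Hnf4a peaks in both lines thus occurred with and without a Foxa peak.

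The regions with iHep Foxa3 included some with strong Foxa3 peaks. At chr15:3220694-3221212, with Hnf4a ranks of 38 for the Foxa1 line and 448 for the Foxa2 line, the iHep Foxa3 peak ranked 147 of 12661, and a Foxa3-line Hnf4a peak lay 73 bp away. At chr2:155417899-155418335 (Hnf4a ranks 99 and 657) and chr16:91044542-91045095 (ranks 460 and 1026) Foxa3 was present at both stages and no Foxa1 or Foxa2 peak was found. The widest region, chr9:3009117-3038421, is of another kind. It spans 29305 bp, is a single Foxa2-line Hnf4a peak of rank 4 joined to a Foxa1-line peak of rank 1499, and lies in a stretch where the 48-hour Hnf4a lists are densely packed, with 88, 83 and 81 peaks inside it in the Foxa1, Foxa2 and Foxa3 lines. Without the dense stretches 580 regions were left, and 47 of them (8.10%) had a 48-hour Hnf4a peak.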

How the data were processed

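The authors deposited 1 peak list per ChIP sample, with the position, name and score of each peak. The score is the deposited value, and how it was computed and whether an input entered the calling are not given in the sources used here. The build mm9, MACS2 2.1.0, BWA 0.6.2 and bedtools 2.16.2 are named without roles, per the submitters' processing notes. Peaks were listed per sample. Printed positions are 1-based.

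Samples were grouped by title, and 12 lists were used. The inputs and the list of a Foxa3 mutant were not used here. Peaks were ranked by score within each list. Overlaps of at least 1 bp, merging, Wilson and Newcombe intervals were computed in Python 3.11.15 with NumPy 2.4.6, pandas 2.3.3, SciPy 1.17.1 and statsmodels 0.14.6, figures with matplotlib 3.10.9, and the code was checked on simulated data. Dense stretches were those where each 48-hour Hnf4a list had a run of at least 5 peaks with gaps of at most 2000 bp, with 10000 bp added on each side.

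Regions were named by lowest summed Hnf4a rank: the first 10, then the first 5 in each of 4 classes (all 4 Foxa1 and Foxa2 lists, early Hnf4a in both lines, iHep Foxa3, no Foxa), the 3 nearest to a Foxa3-line peak and the 3 widest; only some are printed. The region set, the rule for named regions and the classes compared were chosen with earlier results of these data known. No genome or annotation of mm9 was at hand, so no genes or sequences are given. The alternatives are in the closing section.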

Additional observations from a re-analysis of the deposited data

How the results depend on the processing

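For 8 values (the number of regions and 7 shares), 9 alternatives gave 70 recomputed values, of which 57 moved by less than the interval of the value or, for the count, by less than 1.5 times. With the upper 50% of each iHep Hnf4a list, 311 regions met the same rule. Of these, 19.3% were at iHep Foxa1, 32.5% at iHep Foxa2, 18.0% at 48-hour Foxa1 and 15.1% at a 48-hour Hnf4a peak of any line. With the Hnf4a lists cut to 1580 peaks each, 61 of 550 regions (11.1%) were at a 48-hour Hnf4a peak, where 49 of the 582 were. Both cuts also shorten the Foxa3-line list. Regions of all 3 lines whose Foxa3-line peak was cut can then count as shared, so these shares are not those of the 582 regions at higher rank. Counting only peaks with a centre within 200 bp of the region centre, 1.55% were at iHep Foxa3. With the iHep Foxa lists cut to 3435 peaks each, 13.2% were at iHep Foxa2 and 1.72% at iHep Foxa3; shorter lists can only lower these shares, and Foxa2 then no longer exceeded the 15.8% at iHep Foxa1. With the Foxa3-line Hnf4a list left out of the rule, an alternative added after seeing the data, 970 regions were found, with 9.07% at iHep Foxa3, 5.15% at 48-hour Foxa3 and 14.8% at a 48-hour Hnf4a peak, since the regions of all 3 lines then count. For the other moves the cause was not tested. No paired analysis was possible because each group has 1 library. The number of reads behind each list is unknown, so the absence of a peak, the Foxa3-line absence that defines the regions included, cannot be told apart from low depth.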

Other observations

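Some of the shared Foxa1/Foxa2-line regions lay close together. With a gap of at most 50 kb, 80 of the 582 (13.7%) fell into 34 runs, and 4 runs held 3 or more. The longest was chr6:47689629-47723149, where 7 of the 11 iHep Hnf4a regions were shared Foxa1/Foxa2-line regions, 3 of the 11 held a peak of the Foxa3 line, and 2 of the 7 had a 48-hour Hnf4a peak. A run of 4 lay near it at chr6:47614249-47627100. A run of 6 lay at chr9:34882589-34895366, where none of the 9 iHep Hnf4a regions held a peak of the Foxa3 line. A run of 3 lay at chr15:75674574-75710210. None of the regions in these 4 runs met a Foxa peak of any line or stage, while 66.0% of all 582 had none. Neighbouring regions are not independent, and these runs were picked out after their values were seen.

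By chromosome, the shared regions made up from 8.81% of the iHep Hnf4a regions on chromosome 7 (28 of 318) to 17.9% on chromosome X (12 of 67), and the 1 region on chromosome Y was not among them.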
